A study of Mus musculus with 24 samples.

Results

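The prolactin receptor gene Prlr and 9 genes of the JAK-STAT pathway that carries and dampens its signal (Jak2, Stat3, Stat5a, Stat5b, Stat6, Cish, Socs1, Socs2 and Socs3) were measured in the mouse mammary gland. They were chosen by name: every non-control probe whose gene name in the array files equals 1 of these 10 symbols was taken, which gave 18 of the 55681 probes on the array, and these are 10 of its 34797 gene names. Each of the 18 exceeded background clearly on every one of the 24 arrays, as did 29395 of all probes, so no gene was lost because its signal was dim.

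Prolactin binds its receptor on luminal epithelial cells, and the kinase JAK2, which sits on the receptor, phosphorylates STAT5A and STAT5B, which enter the nucleus and switch on genes of alveolar growth and milk production. STAT3 is best known in this tissue for its role in involution after weaning, and STAT6 carries signals of interleukin-4 and interleukin-13. CIS, the product of Cish, and the SOCS proteins are induced by STATs and bind the receptors or kinases that activated them, which closes a negative feedback loop.

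Low-dose ionizing radiation (LDIR) was a whole-body exposure of female mice to 10 cGy of X-rays at 8 to 9 weeks of age, and sham mice of the same strains were the controls. There were 3 BALB/c sham and 3 BALB/c LDIR mice at each of 2, 4 and 8 weeks after exposure, and 3 sham and 3 LDIR mice of SPRET/EiJ at 4 weeks, 1 array each. BALB/c is a laboratory strain, more sensitive to radiation-induced mammary cancer, whose variants of the DNA repair kinase DNA-PKcs lower its activity, and SPRET/EiJ is an inbred strain of the species Mus spretus and more resistant. RNA came from whole glands, so each level is a mixture of epithelium, fat, stroma, vessels and immune cells, and the stage of the estrous cycle of each mouse was not given in the sources used here.

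A level is the log2 signal of a probe minus the 75th percentile of all probes of its array, so 0 marks that percentile and a difference of 1 is a doubling. Levels of different probes cannot be set against each other, since probes bind with different strength, so differences of 1 probe between arrays are compared. The one other measure used is the difference of 2 probes of a gene within an array, whose size has no meaning by itself and which is set only against the same difference on other arrays. The share of probes well above background ranged from 57.1% of probes on SPRET/EiJ LDIR replicate C to 72.6%. The luminal epithelial markers (14 of 14) and the white adipocyte markers (8 of 8) were above background on every array, as the labelled tissue should give, and of 6 milk protein genes 2 were. Libraries that stood apart were BALB/c 8-week sham replicate A, BALB/c 8-week LDIR replicate B and SPRET/EiJ LDIR replicate A, on which the summed linear level of 4 B lymphocyte markers was 81.6, 101 and 86.1, while the other 21 arrays all lay under 50. The arrays lay on 3 slides: slide 1 held all 2-week arrays and BALB/c 4-week sham replicates A and B, slide 2 held 4-week sham replicate C, the 4-week LDIR arrays, the 8-week sham arrays and 8-week LDIR replicate A, and slide 3 held 8-week LDIR replicates B and C and all SPRET/EiJ arrays.

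The sequences of 2 probes are shown first, from a gene whose probes gave the same strain difference (Prlr) and one whose probes gave opposite differences (Socs2). Each is 60 bases, written 5′ to 3′, with coordinates of mouse build mm9 from the array files.
Prlr, base 1425 of its transcript, chr15:10255629-10255688, plus strand: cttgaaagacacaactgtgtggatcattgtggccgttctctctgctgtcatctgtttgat
Socs2, base 818 of its transcript, chr10:94875468-94875527, minus strand: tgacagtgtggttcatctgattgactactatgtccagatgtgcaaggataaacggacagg
The probe with the highest mean over the 24 arrays represents each gene. For Prlr it lies at base 2618 (chr15:10259066-10259125), for Stat3 at base 2953 (chr11:100749598-100749657) and for Socs2 at base 1220 (chr10:94875066-94875125). Probes of the other genes lie at chr19:29387487-29387546 (Jak2), chr11:100746373-100746432 (Stat5a), chr11:100642045-100642104 (Stat5b), chr10:127097689-127097748 (Stat6), chr9:107204196-107204255 (Cish), chr16:10783951-10784010 (Socs1) and chr11:117827480-117827539 (Socs3). The array files give no exon or untranslated region for these positions, and no annotation of mm9 was used here. Stat5a and Stat5b encode very similar proteins, but the Stat5a probe shared no run of bases longer than 7 with either Stat5b probe. The Stat3 and Socs2 representative probes were each spotted 10 times on an array, with a median SD over spots of 0.039 and 0.074 on the log2 scale.

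Prlr, the receptor, was highest in BALB/c glands at 2 and 4 weeks, lower in BALB/c at 8 weeks and lowest in SPRET/EiJ. At 2 weeks its levels in sham replicates A, B and C were 5.63, 4.52 and 4.94, and in LDIR 5.84, 4.46 and 4.48. At 4 weeks they were 4.67, 5.32 and 5.3 in sham and 5.66, 4.53 and 5.21 in LDIR. These 4 groups covered nearly the same range. The 8-week levels were 4.12, 4.2 and 4.38 in sham and 4.16, 3.52 and 4.48 in LDIR. SPRET/EiJ levels were 3.56, 2.72 and 3.69 in sham and 1.97, 3.4 and 3.39 in LDIR. The 2 strains overlapped only through BALB/c 8-week LDIR replicate B. In each of the 3 groups that held an array high in lymphocyte markers, that array had the lowest Prlr level of its group.

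The order of the group means was BALB/c 4-week LDIR, 4-week sham, 2-week sham, 2-week LDIR, 8-week sham, 8-week LDIR, SPRET/EiJ sham and SPRET/EiJ LDIR, from 5.13 ± 0.57 (SD, n = 3) to 2.92 ± 0.82 (SD, n = 3). The first 4 of these, with means of 4.93 to 5.13, lay closer together than their SDs of 0.37 to 0.79, and the 8-week pair (4.23 ± 0.13 and 4.05 ± 0.49) and the SPRET/EiJ pair (3.32 ± 0.52 and 2.92 ± 0.82) each differed by less than the SD of its LDIR group. The second Prlr probe followed the first closely, with a Pearson r of 0.95 over the 18 BALB/c arrays and 0.97 over the 6 SPRET/EiJ arrays, points that share their RNA and their array.

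**Figure D1:**
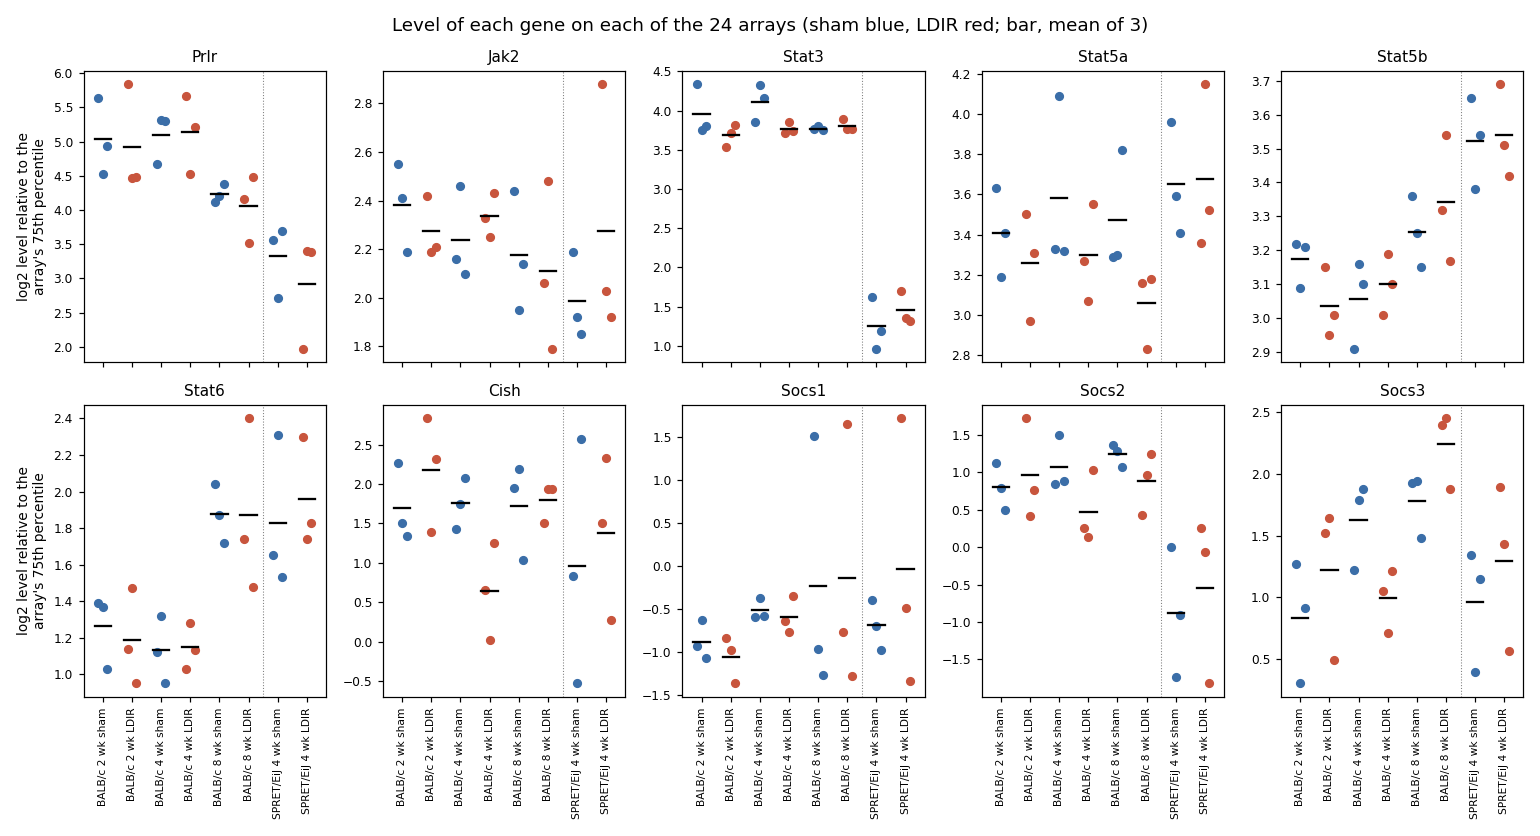
Level of the representative probe of each of the 10 genes (y axis, log2 relative to the 75th percentile of the array; each panel has its own scale) on each of the 24 arrays, by group on the x axis. Points are arrays, black bars the mean of 3, and the dotted line parts the strains. Prlr and Stat3 sit lower in SPRET/EiJ, and Socs1 has 3 high points, between 1.51 and 1.71.

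To ask how the strains differed at baseline, BALB/c and SPRET/EiJ sham glands at 4 weeks were compared. Prlr and Stat3, a transcription factor, were higher in BALB/c, and Stat6, a relative of Stat3, had lower values there. With the thresholds of the study for this comparison (unadjusted p under 0.001 and a change over 1.5-fold), 1 of the 18 probes passed, beside 8.89% of all probes. By an adjusted p under 0.05 in limma, 4 of the 18 passed, beside 18.8% of all probes. The 2 groups did not overlap for 9 of the 18 probes, beside 38% of all probes. BALB/c was the higher strain for 4 of these (beside 17.7%) and the lower for 5 (beside 20.3%). These shares are near the background, so the list as a whole is not set apart by them.

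Stat3 had the largest difference of the 18 probes. Its levels at base 2953 were 3.86, 4.33 and 4.16 in BALB/c sham and 1.62, 0.96 and 1.19 in SPRET/EiJ sham. None of these SPRET/EiJ sham arrays came within 2 log2 units of any of these BALB/c sham arrays. The difference was 2.86 (SE 0.24, 95% interval 2.29 to 3.43), or 7.26-fold, with a limma adjusted p of 0.000756, and with slide as a block it was 2.79. The second Stat3 probe did not share this. BALB/c sham averaged −2.02 ± 0.66 (SD, n = 3) there. SPRET/EiJ sham averaged −1.99 ± 0.38 (SD, n = 3), giving a difference of −0.04 (95% interval −0.94 to 0.87). Within an array, the first probe read 4.56 to 7.11 above the second in BALB/c (median 5.28, 18 arrays) and 2.42 to 3.6 above it in SPRET/EiJ (median 3.26, 6 arrays). The 2 probes did not vary together within BALB/c either, with a Pearson r of −0.46 over its 18 arrays, against 0.76 over the 6 SPRET/EiJ arrays. How far either probe matches the SPRET/EiJ sequence was not tested, so the strain difference of Stat3 holds for 1 of 2 probes.

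Prlr was 3.42-fold higher in BALB/c sham than in SPRET/EiJ sham, a log2 difference of 1.77 (SE 0.33, 95% interval 0.98 to 2.56; limma adjusted p = 0.0138), with no overlap of the groups. It passed the adjusted threshold in limma, and its unadjusted limma p of 0.00136 missed the stricter threshold of the study. The probe at base 1425, shown above, gave 1.44 (SE 0.33; limma adjusted p = 0.0299), from 2.2 ± 0.26 (SD, n = 3) to 0.77 ± 0.6 (SD, n = 3). No slide held 4-week arrays of both strains, and when the 24 arrays were fitted together and slide was the block, Prlr differed by 1.82 with an unadjusted p of 0.0791, while in LDIR mice the same fit gave 2.06 with an unadjusted p of 0.027. Luminal epithelial markers moved with it: 13 of 14 had positive differences, with a median of 1.52 beside −0.08 over all probes, although 0 of 14 passed either threshold. Their summed linear level was 186 to 371 in BALB/c sham and 36.3 to 173 in SPRET/EiJ sham. Of the basal markers 2 of 7 passed both thresholds, higher in BALB/c, while 0 of 6 milk protein differences were above 0. In a whole gland, fewer luminal cells and less Prlr RNA per cell cannot be told apart. How far the Prlr probes match the SPRET/EiJ sequence was not tested either.

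The kinase gene Jak2 differed by 0.26 (95% interval −0.2 to 0.71) and Stat5a by −0.07 (95% interval −0.75 to 0.6), both with overlapping groups. Stat5b, the other STAT5 gene, had differences below 0 at both probes, −0.46 (limma adjusted p = 0.112) and −0.24 (limma adjusted p = 0.349), and neither passed. For Stat6 all 3 probes had lower values in BALB/c with no overlap of the groups, by −0.7, −0.68 and −0.69, and limma adjusted p-values of 0.114, 0.0718 and 0.123. At base 3450 the Stat6 levels were 1.12, 1.32 and 0.95 in BALB/c sham against 1.65, 2.31 and 1.53 in SPRET/EiJ sham. Stat6 is thus the gene whose probes gave the closest strain differences in this comparison, without a call. Its probes did not all vary together over the 18 BALB/c arrays. The Pearson r was 0.84 between bases 3450 and 2354, and 0.03 and −0.05 between these and base 300.

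None of the single-probe feedback genes passed. Cish, an inhibitor that STAT5 induces, ranged from −0.53 to 2.57 among the 3 SPRET/EiJ sham arrays, which covered all 3 BALB/c sham values (1.43, 1.75 and 2.08). Socs3, which blocks signals of the interleukin-6 family, differed by 0.67 (limma adjusted p = 0.207) and Socs1, an inhibitor of interferon signals, by 0.17 (limma adjusted p = 0.614).

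The strains were compared again in the irradiated mice, which share no array with the sham comparison. Here too the strains lay on different slides, and the same probes were read. By adjusted p, Prlr at base 2618 and Stat3 at base 2953 passed in both comparisons. Prlr at base 1425 and Socs2 at base 1220 passed only in sham mice, and Stat6 at base 2354 only in LDIR mice. Of the 18 probes 1 passed both thresholds, beside 5.67% of all probes, 3 passed by adjusted p, beside 11.1%, and 8 did not overlap, beside 33.5%. Stat3 at base 2953 was again the probe past both, with 3.71, 3.85 and 3.74 in BALB/c LDIR against 1.7, 1.35 and 1.32 in SPRET/EiJ LDIR, a difference of 2.31 (SE 0.22; limma adjusted p = 0.0019). With its second probe it differed by 0.01 (95% interval −0.97 to 0.99), and by 0.45 (limma adjusted p = 0.244) without SPRET/EiJ replicate A. Prlr differed by 2.22 (SE 0.49; limma adjusted p = 0.0338), and by 1.74 (limma adjusted p = 0.0285) without SPRET/EiJ replicate A, the array high in lymphocyte markers. Its second probe gave 1.71 (limma adjusted p = 0.0536). Stat6 at base 2354 was lower in BALB/c by −1.07 (SE 0.22; limma adjusted p = 0.0269), with −0.88 (unadjusted p = 0.085) when slide was a block, while the probes at bases 3450 and 300 gave −0.81 (limma adjusted p = 0.0899) and −0.55 (limma adjusted p = 0.385), the last −0.23 without that array. Luminal markers had a median difference of 1.72 here, with 13 of 14 positive and 2 past both thresholds. Their part in the Prlr difference was not tested.

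**Figure D2:**
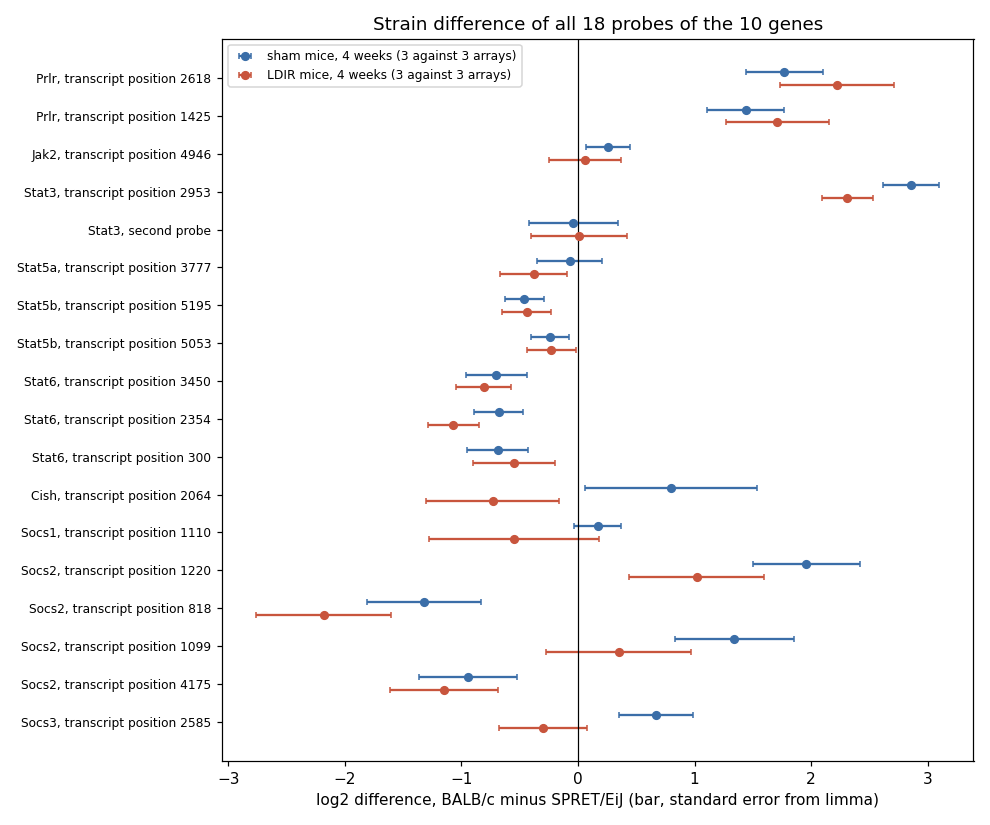
Strain difference (x axis, log2 level in BALB/c minus SPRET/EiJ at 4 weeks) of the 18 probes, named on the y axis by gene and position in the transcript (the second Stat3 probe by name only), in sham mice (blue) and LDIR mice (red). Points are limma estimates from 3 against 3 arrays and bars are standard errors. Stat3 at base 2953 lies at 2.86 and 2.31 while its second probe lies near 0, and the Socs2 probes lie on both sides of 0.

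Socs2, a feedback inhibitor best known for limiting growth hormone signals, gave opposite strain differences with different probes. The probe at base 1220 read 0.85, 1.5 and 0.88 in BALB/c sham and 0, −1.74 and −0.91 in SPRET/EiJ sham, a difference of 1.96 (SE 0.46; limma adjusted p = 0.0303). The probe at base 818 read −0.34, 0.67 and −0.32 in BALB/c sham and 2.11, 0.43 and 1.43 in SPRET/EiJ sham, a difference of −1.32 (SE 0.49; limma adjusted p = 0.12). One probe of the gene was higher in BALB/c and the other had lower values there. At base 1099 the difference was 1.34 (limma adjusted p = 0.124), and a probe of a longer transcript of the locus (base 4175, chr10:94848005-94848064) gave −0.94 (limma adjusted p = 0.185). Among LDIR mice the values were 1.02 (limma adjusted p = 0.331) at base 1220, −2.18 (limma adjusted p = 0.0621) at base 818, 0.35 at base 1099 and −1.15 at base 4175. Without SPRET/EiJ LDIR replicate A they were 1.42, −1.79, 0.8 and −0.99.

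Within a strain, 3 of the 4 Socs2 probes varied together closely. The probes at bases 1220 and 818 had a Pearson r of 0.96 over the 18 BALB/c arrays and 0.99 over the 6 SPRET/EiJ arrays, as a description of points that share RNA and array. The probe at base 4175 followed the others less closely, with an r of 0.57 to 0.71 over the BALB/c arrays. The difference between bases 1220 and 818 within an array was a near constant of each strain: 0.83 to 1.53 in BALB/c (median 1.16) and −2.34 to −2 in SPRET/EiJ (median −2.1). The strain ranges of this difference did not overlap. Between bases 1220 and 1099 it was 0.62 to 1.09 in BALB/c (median 0.87) and −0.03 to 0.49 in SPRET/EiJ (median 0.19). No strain difference of Socs2 RNA can therefore be read from 1 of these probes alone, and whether the probes match the SPRET/EiJ sequence was not tested.

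**Figure D3:**
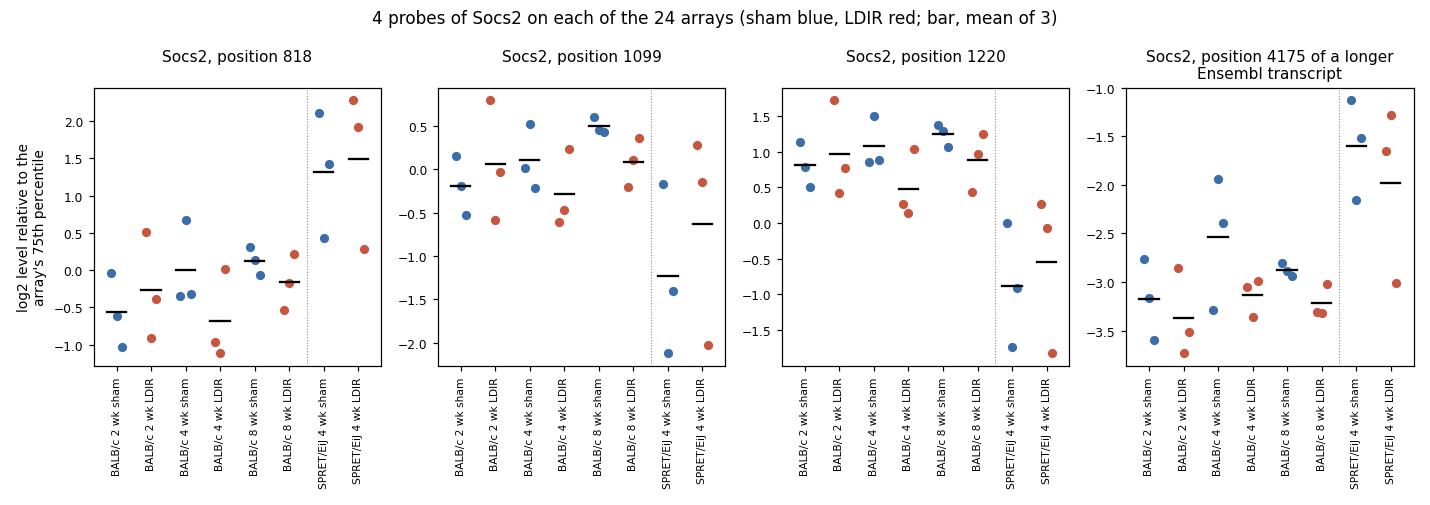
Level of the 4 Socs2 probes (y axis, log2 relative to the 75th percentile of the array; each panel has its own scale) on the 24 arrays, by group. Points are arrays and bars the mean of 3. Relative to BALB/c sham at 4 weeks, SPRET/EiJ sham lies lower at base 1220 (−0.88 against 1.08) and higher at base 818 (1.32 against 0).

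The question of the radiation comparisons was which genes LDIR changed within a strain and time, with thresholds of an unadjusted p under 0.05 and a change over 1.5-fold. At 4 weeks in BALB/c, Cish and Socs3, both feedback inhibitors, were lower after LDIR, 2 of 18 probes beside 4.83% of all probes past the thresholds in either direction and 1.44% lower. No probe of the array had an adjusted p under 0.05 in any LDIR comparison, with 2799, 3440, 1098 and 1238 probes at an unadjusted p under 0.05 in the BALB/c comparisons at 2, 4 and 8 weeks and the SPRET/EiJ one, in that order.

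Cish read 1.43, 1.75 and 2.08 in 4-week sham and 0.65, 0.02 and 1.25 in 4-week LDIR, so every LDIR array lay below every sham array. The difference was −1.11 (SE 0.35, 95% interval −1.94 to −0.28), 2.16-fold lower, with an unadjusted p of 0.0165 and an adjusted p of 0.775 in limma. The LDIR group mean of 0.64 ± 0.61 (SD, n = 3) was the lowest of the 8 groups, and the other BALB/c groups lay between 1.7 and 2.18. Socs3 read 1.22, 1.79 and 1.88 in sham and 1.05, 0.71 and 1.21 in LDIR, again without overlap, although the nearest arrays differed by less than any SD (1.22 and 1.21). Its difference was −0.64 (SE 0.24, 95% interval −1.23 to −0.05), 1.56-fold lower, with an unadjusted p of 0.0366 and an adjusted p of 0.775 in limma. Non-overlap was seen for 3 of the 18 probes, beside 12.6% of all probes.

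Both calls were lost in some alternatives. Within slide 2, which held the 3 LDIR arrays and 1 sham array, the differences were −1.44 for Cish and −0.89 for Socs3, and fitting the 24 arrays together with a slide block gave unadjusted p-values of 0.135 and 0.119. Without sham replicate C the difference of Cish was −0.95 (unadjusted p = 0.053) and that of Socs3 −0.52 (unadjusted p = 0.106), and the Socs3 call was also lost without sham replicate B, LDIR replicate A or LDIR replicate B. With the replicate block Socs3 had an unadjusted p of 0.0526, and Cish stayed past both thresholds. Macrophage markers rose beside them, 3 of 4 past the thresholds, with a summed linear level of 24.1 to 43.3 in sham and 46.4 to 68.2 in LDIR, and of the other lists milk protein genes had 6 of 6 differences above 0 (2 past), brown adipocyte markers 0 of 4 (1 past lower), basal markers 1 of 7 (2 past lower) and white adipocyte markers 1 of 8 (1 past lower). Their part in the result was not tested.

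The other genes of the loop gave no call at 4 weeks. Prlr differed by 0.04 (95% interval −0.78 to 0.85), Jak2 by 0.09 (95% interval −0.31 to 0.5) and Stat5b by 0.04 (95% interval −0.34 to 0.41). Stat5a differed by −0.29 (95% interval −0.93 to 0.36), and Stat6 at base 3450 by 0.02 (95% interval −0.4 to 0.43). Stat3 at base 2953 differed by −0.35 with no overlap of the groups (unadjusted p = 0.0953), and with its second probe by 0.44. The 4 Socs2 probes all had lower values after LDIR, by −0.6, −0.69, −0.4 and −0.59, with overlapping groups and no call, and Socs1 differed by −0.08.

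At 2 weeks 0 of the 18 probes passed, beside 3.05% of all probes. Cish differed by 0.48 (95% interval −0.55 to 1.5) and Socs3 by 0.39 (95% interval −0.55 to 1.33), values above 0 where those at 4 weeks were below, and no test of the difference between times was made. Stat6 at base 2354 (0.49) did not overlap, 1 of 18 beside 11.8% of all probes. At 8 weeks 0 of 18 passed, beside 1.92% of all probes. Stat5a (−0.41), Socs2 at base 1099 (−0.41) and Socs2 at base 4175 (−0.34) did not overlap there, 3 of 18 beside 4.97% of all probes, with unadjusted p-values of 0.147 to 0.172. Socs3 read 1.93, 1.94 and 1.48 in 8-week sham and 2.4, 2.45 and 1.88 in 8-week LDIR, a difference of 0.46 (95% interval −0.22 to 1.14). In SPRET/EiJ 0 of 18 passed, beside 2.21% of all probes, Stat6 at base 2354 (0.42) was the 1 of 18 without overlap, beside 5.89%, and the intervals were wide, −1.58 to 2.41 for Cish and −1.54 to 0.73 for Prlr.

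Over the 3 times together, with time as a covariate in all 18 BALB/c arrays, 0 of 18 probes passed, beside 1.16% of all probes. Stat5a had the lowest p among the representative probes, with −0.28 (SE 0.14; unadjusted p = 0.0524, limma adjusted p = 0.985). Its change of 1.22-fold was also under the 1.5-fold threshold. Among the others, Socs2 at base 4175 had −0.38 (limma unadjusted p = 0.0476, adjusted p = 0.985), a change of 1.3-fold that was too small to pass. Whether the 4-week effect of LDIR differed between strains was tested as an interaction, and 0 of 18 probes passed, beside 3.59% of all probes. The interaction was −1.53 (95% interval −3.73 to 0.67) for Cish, from −1.11 in BALB/c and 0.42 in SPRET/EiJ, and −0.98 (95% interval −2.12 to 0.16) for Socs3, from −0.64 and 0.33. The intervals are too wide to show that the strains responded alike or unlike.

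**Figure D4:**
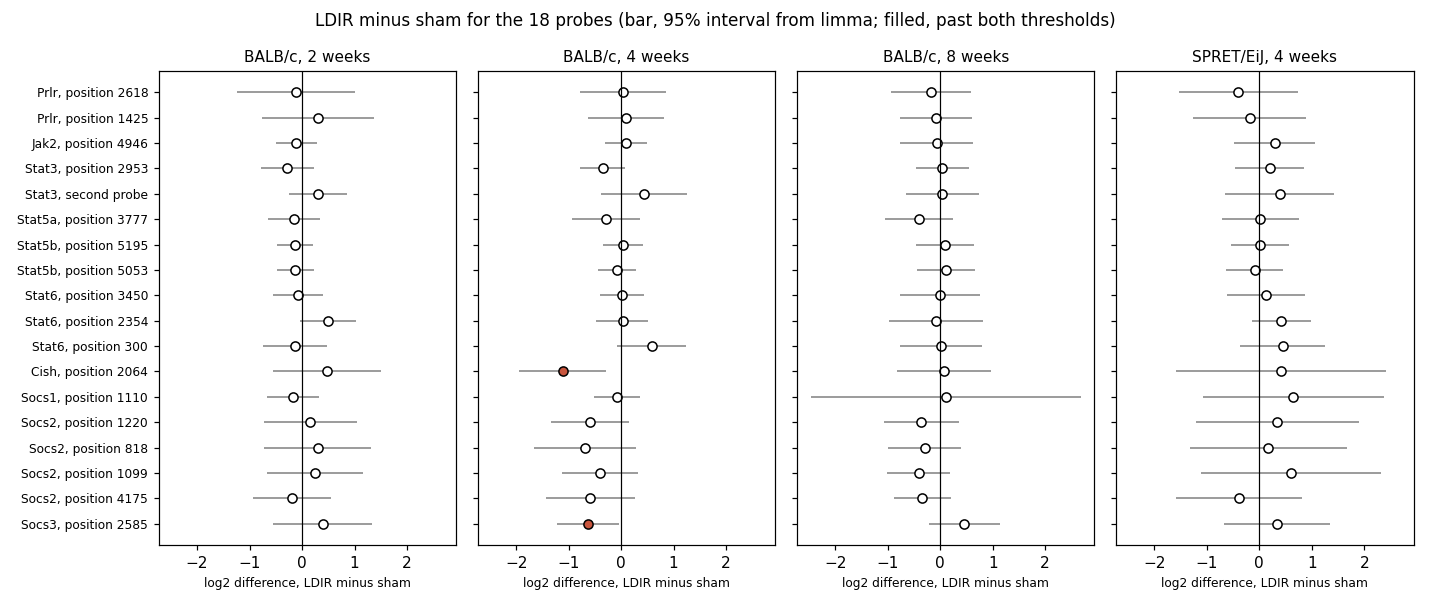
LDIR minus sham difference (x axis, log2) of the 18 probes (y axis, by gene and position in the transcript, the second Stat3 probe by name only) in the 4 groups of mice. Points are limma estimates from 3 against 3 arrays, bars 95% intervals, and filled points passed both thresholds. Filled points appear only in BALB/c at 4 weeks, for Cish at −1.11 and Socs3 at −0.64.

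Between times, Prlr and Stat6 differed in unirradiated BALB/c glands at unadjusted thresholds, and no probe of the array had an adjusted p under 0.05, with 7864 probes at an unadjusted p under 0.05 from 4 to 8 weeks. From 4 to 8 weeks 3 of the 18 probes passed (unadjusted p under 0.05 and over 1.5-fold), beside 13.7% of all probes, and 6 did not overlap, beside 23.4%, so these shares are near the background. Prlr was lower at 8 weeks by −0.86 (SE 0.27, 95% interval −1.52 to −0.2; limma adjusted p = 0.249), the 8-week sham levels of 4.12 to 4.38 lying below all 4-week ones. Its second probe gave −0.51 (limma adjusted p = 0.415). Stat6 read 1.12, 1.32 and 0.95 at 4 weeks and 2.04, 1.87 and 1.72 at 8 weeks at base 3450, a difference of 0.75 (SE 0.23; limma adjusted p = 0.242). At base 2354 it was 1 (SE 0.24; limma adjusted p = 0.169), while base 300 gave 0.19 (limma adjusted p = 0.848). Both Stat3 probes were also without overlap but in opposite directions. Base 2953 gave −0.35 (limma adjusted p = 0.584) and the second probe 0.75 (limma adjusted p = 0.476). Within slide 2 the differences were −1.07 for Prlr and 0.92 and 1.14 for Stat6, against 1 4-week sham array, and with slide as a block the Prlr call was lost (unadjusted p = 0.129).

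Leaving out 4-week sham replicate B or C or 8-week sham replicate B also ended the Prlr call, with differences of −0.75, −0.76 and −0.85. The Stat6 call at base 3450 was lost without 4-week sham replicate A or C or 8-week sham replicate B, with 0.74, 0.66 and 0.75, and with the replicate block (unadjusted p = 0.057). White adipocyte markers were lower at 8 weeks, 5 of 8 past the thresholds and a summed level of 1000 to 1510 against 2110 to 2830, brown adipocyte markers too, 3 of 4 and 13.2 to 32.8 against 81.1 to 155, and skeletal muscle markers were higher, 5 of 6 and 36.8 to 150 against 1.2 to 24.7. Macrophage markers were higher too, 2 of 4 and 55.5 to 64.5 against 24.1 to 43.3, and 2 of 14 luminal markers were lower. Their part in the Prlr and Stat6 differences was not tested. Sham mice at 8 weeks were also older, and 2 of the 3 mice at 4 weeks lay on another slide.

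From 2 to 4 weeks 2 of 18 probes passed, beside 3.04% of all probes, and 2 did not overlap, beside 8.93%. Socs3 was higher at 4 weeks by 0.81 (SE 0.31; unadjusted p = 0.0385, limma adjusted p = 0.984), from 1.27, 0.3 and 0.91 to 1.22, 1.79 and 1.88, with overlapping groups. Within slide 1 it was 0.68, and the call was lost with slide as a block (unadjusted p = 0.131), with the replicate block (unadjusted p = 0.0825) and without 2-week replicate B or C or 4-week replicate B or C. Stat6 at base 300 was lower by −0.64 (limma adjusted p = 0.984), a call also lost with slide as a block (unadjusted p = 0.059), while its other 2 probes gave −0.13 and 0.21. The 4-week sham mice enter this comparison, the one from 4 to 8 weeks, and the LDIR comparison at 4 weeks, so these results are not independent of each other.

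Socs1 was the gene set apart by single arrays. It read 1.51 on BALB/c 8-week sham replicate A, 1.65 on 8-week LDIR replicate B and 1.71 on SPRET/EiJ LDIR replicate A, and −1.36 to −0.35 on the other 21 arrays. The 3 high arrays are those with the high summed B lymphocyte level, and their T lymphocyte markers summed to 76.2, 98.7 and 71.9. Their other 2 group members each read −0.49 or lower. Without these arrays the Socs1 difference in SPRET/EiJ between LDIR and sham went from 0.65 to −0.23, the strain difference in LDIR mice from −0.55 to 0.32 and the interaction from −0.72 to 0.15. The sham difference from 4 to 8 weeks went from 0.27 to −0.6 (limma adjusted p = 0.176). For Prlr the LDIR difference without them was 0.03 at 8 weeks, from −0.18, and 0.07 in SPRET/EiJ, from −0.41.

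**Figure D5:**
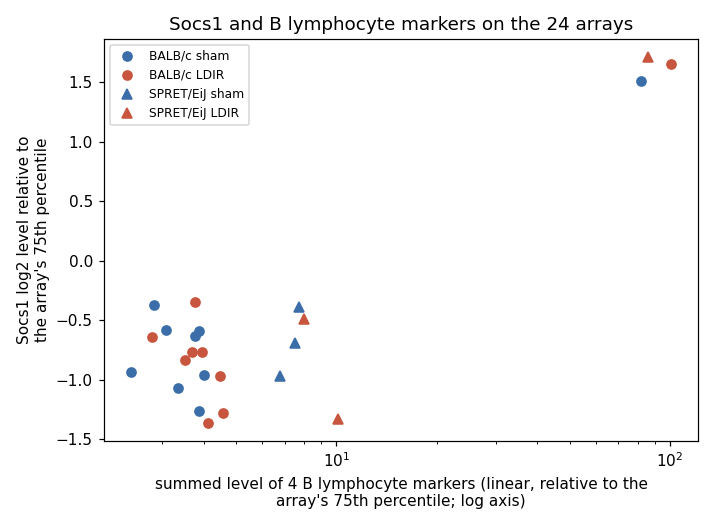
Socs1 level (y axis, log2 relative to the 75th percentile of the array) against the summed level of 4 B lymphocyte markers (x axis, linear units relative to the 75th percentile, drawn on a log axis) on the 24 arrays. Circles are BALB/c and triangles SPRET/EiJ, blue sham and red LDIR. The 3 arrays with a summed level over 80 have Socs1 levels of 1.51 to 1.71, and all others lie below 0.

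The genes whose levels followed each member most closely over the 18 BALB/c arrays were taken from 13858 genes above background on all of them, by Pearson r and as a description, since arrays of a group and of a time share conditions. Prlr went with Pgr (r = 0.95), the progesterone receptor gene, and with Dock5 (r = 0.9) and Slc12a2 (r = 0.9). Socs1 went with Ptpn7 (r = 0.98), Hcst (r = 0.97) and Snx20 (r = 0.97), genes of blood cells. By Spearman rank correlation the value for Ptpn7 was 0.84, and Hcst and Snx20 were not among the 3 highest for Socs1. Pgr and Dock5 were not among the 3 highest for Prlr by that measure. The 18 arrays include 8-week sham replicate A and 8-week LDIR replicate B, both high in Socs1 and in B lymphocyte markers. Socs3 went with the immediate early gene Ier2 (r = 0.86), with Srsf5 (r = 0.85) and with the stress gene Ppp1r15a (r = 0.83). Cish went with Ubxn7 (r = 0.81), Socs2 (r = 0.73) and Foxq1 (r = 0.69), and Socs2 in turn with Osbpl3 (r = 0.78), Cish (r = 0.73) and Rundc1 (r = 0.73).

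Among the signal carriers, Jak2 went with Zc3h7a (r = 0.89), Stat3 with Grik5 (r = 0.85), Stat5a with Prom2 (r = 0.79), Stat5b with Zfp622 (r = 0.91) and Stat6 with Gak (r = 0.95). Among the 10 genes themselves the highest r was 0.78 for Stat5b with Stat6, and the lowest −0.74 for Prlr with Stat6. Prlr had an r of 0.1 with Cish, 0.15 with Socs2 and 0.55 with Stat5a.

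The wider pathway was counted from a list of 60 genes (ligands, receptors, kinases, STATs, inhibitors and phosphatases, targets), all on the array and 50 above background on all 24 arrays. In the strain comparison of sham mice 2 were higher and 1 lower in BALB/c past both thresholds, beside 8.89% of all probes, with a median difference of 0.16 beside −0.08 over all probes. Tnfsf11, the RANK ligand gene that prolactin and progesterone induce, had a mean at least 8.43-fold higher in BALB/c (limma adjusted p = 0.00761). It was measured on 3 of 3 BALB/c arrays and was not well above background on the SPRET/EiJ arrays. That bound sets the BALB/c mean against the lowest signal well above background on each SPRET/EiJ array. It does not allow for the spread of the BALB/c arrays (−2.36 ± 1.77, SD, n = 3). Whether the probe matches the SPRET/EiJ sequence was not tested. Csf2rb, a receptor subunit for GM-CSF, was higher by 1.84 (limma adjusted p = 0.0013), although its second probe gave 0.28, and the interferon receptor gene Ifnar1 was lower by −0.97 (limma adjusted p = 0.011), with 0.11 and 0.65 at its other probes. In LDIR mice, where 5.67% of all probes passed, 1 was higher, the luminal regulator Elf5 (1.83; limma adjusted p = 0.0145), and 1 lower, the cell cycle inhibitor Cdkn1a (−2.3; limma adjusted p = 0.00364). The other Cdkn1a probes gave −1.43 and 0.67 there, above background on 9 and 20 of the 24 arrays.

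After LDIR the list gave 0 calls in BALB/c at 2 weeks (beside 3.05% of all probes) and in SPRET/EiJ (beside 2.21%), and 2 higher and 2 lower of 60 in BALB/c at 4 weeks (beside 4.83%). Csn2, the beta-casein gene, was called higher at 4 weeks (limma adjusted p = 0.775). It was well above background on 2 of 3 LDIR arrays and no sham array, so no size is given. Pim1, a survival kinase gene induced by STATs, was lower by −1.17 (unadjusted p = 0.0241, limma adjusted p = 0.775), and Ifng, the interferon-gamma gene, by −1.15 (unadjusted p = 0.0288, limma adjusted p = 0.775). At 8 weeks the 1 call was Prl, prolactin itself, which was not well above background in either group, so it has no level there. Pooled over times the 1 call was Tnfsf11, which was well above background on 5 of 9 LDIR and 7 of 9 sham arrays, so no size is given for it (limma adjusted p = 0.985). The interaction gave 2 higher and 2 lower, among them Bcl6 (1.52) and Tslp (1.45), both with a limma adjusted p of 0.955. Csf2 was among them too, but was not well above background on any of these arrays.

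In sham BALB/c glands the list gave 2 higher and 2 lower from 2 to 4 weeks (beside 3.04% of all probes), and 3 higher and 2 lower of 60 from 4 to 8 weeks (beside 13.7%). Pim1 was higher at 4 than at 2 weeks by 1.09 (limma adjusted p = 0.984). Ifng was called higher too, but was well above background on 2 of 3 arrays at 2 weeks, so no size is given. Il13 was called lower, also without a size, since it was above background on 2 of 3 2-week arrays and no 4-week array. From 4 to 8 weeks Cdkn1a was higher by 1.92 (limma adjusted p = 0.0992; 0.92 and 0.37 at its other probes), the BMP target Id1 lower by −1.62 (limma adjusted p = 0.194) and the kinase gene Tyk2 higher by 1.22 (limma adjusted p = 0.237).

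The promoter windows of the members were searched for the STAT5 motif TTCNNNGAA, which reads the same on both strands. RefSeq (assembly GRCm38.p6) listed 13 windows for 9 of the 10 genes, and the 250 bases before each start were read. The motif was in 2 of the 13, at Prlr and Socs3, beside 7.02% of all 32851 windows of this length. Both are shown 5′ to 3′ on the gene's strand because they hold it, with the motif in capitals.
Prlr, chr15:10223656-10223905, plus strand: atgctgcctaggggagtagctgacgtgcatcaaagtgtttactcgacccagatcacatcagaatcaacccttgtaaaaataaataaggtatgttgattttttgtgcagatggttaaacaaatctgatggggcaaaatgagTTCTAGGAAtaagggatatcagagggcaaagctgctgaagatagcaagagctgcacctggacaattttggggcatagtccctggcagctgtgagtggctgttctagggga
Socs3, chr11:117969367-117969616, minus strand: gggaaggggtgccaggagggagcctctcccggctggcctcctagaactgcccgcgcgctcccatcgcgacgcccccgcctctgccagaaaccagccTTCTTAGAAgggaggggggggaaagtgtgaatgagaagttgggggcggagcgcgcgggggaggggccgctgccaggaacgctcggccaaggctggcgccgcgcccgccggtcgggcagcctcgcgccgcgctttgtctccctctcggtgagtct
The motif begins 110 bases before the start at Prlr and 154 before it at Socs3. The other 11 windows, Cish included, hold no such letters, which says nothing about STAT binding there, and no protein binding was measured.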

How the data were processed

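Total RNA from whole mammary glands was hybridised in 1 colour to Agilent SurePrint G3 8x60K mouse arrays, 24 arrays in 8 groups of 3. The deposited intensities per spot come from Feature Extraction 10.10.1.1 (processed signal, background-subtracted), and the authors' deposited log2 table, scaled to the 75th percentile, is centred per probe. Of its values 99.812% lay within 0.01 of those computed here after the same centring, so its direction and scale are known and it served as an alternative. From the processed signals of 59305 non-control spots (build mm9 in the array files), 3777 outlier spots were left out, no spot was saturated, spots of a probe were averaged, and log2 minus the 75th percentile of the array was taken. Precision is limited by 3 arrays per group.

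The members and all gene lists were chosen with earlier results of these data known. All 10 members were named, the 3 genes most like each where their r adds to the account, and from the pathway at most 3 past both thresholds per comparison. Each comparison was fitted on its own arrays by limma 3.58.1 (R 4.3.3), with Benjamini-Hochberg adjustment over all probes, at the thresholds of the study's methods and at an adjusted p under 0.05. The fit was tested on simulated data. Intervals are 95% from limma. Alternatives were background correction (normexp, offset 50), quantile normalization, the authors' values, keeping outlier spots, testing detected probes alone, the t-test of the methods, all 24 arrays in one fit, replicate letter or slide as a block, each array left out and, added after seeing the data, leaving out the arrays with a summed B lymphocyte level over 50. Replicate letters deviated together at 2 weeks (r of 0.167, 0.481 and 0.172 over 29395 probes), and in no other comparison were all 3 over 0.1. The labels do not say what a letter marks, so a pairing of LDIR and sham mice by letter is an assumption. The main fits, those at 2 weeks included, are unpaired. Promoters are RefSeq windows (GRCm38.p6), and no coordinates were converted. The methods call the 3 mice of a group biological replicates. The sequence and position of 1 probe are not reported here.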

Additional observations from a re-analysis of the deposited data

How the results depend on the processing

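Each result rests on 3 arrays per group, and probes of 1 gene disagreed between strains for Stat3 and Socs2, so the strain values hold for single probes. Followed through the alternatives were probes past both thresholds or with an adjusted p under 0.05, and the representative Prlr probe in every comparison. Values without a call had none to lose, so the counts below do not give the share of calls that held. Of the alternatives other than leaving out an array, 166 values of single probes kept direction and side of the threshold, 18 lost the call, 10 gained it and 5 reversed. With 1 array left out, 111 kept both, 19 lost the call, 1 gained it and 13 reversed. Causes were not tested.

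The number of the 18 probes past the thresholds in the strain comparison of sham mice was 1, with 2 by normexp, 2 among detected probes, 3 with all 24 arrays in one fit and 1 to 2 leaving out an array (2 without SPRET/EiJ sham replicate A). In LDIR mice it was 1, with 4 by normexp, 2 by quantile normalization, 2 among detected probes, 5 with all 24 arrays and 1 to 3 leaving out an array (3 without SPRET/EiJ replicate C). For LDIR against sham in BALB/c at 4 weeks it was 2, with 1 by normexp, 0 by the methods' t-test, 0 with all 24 arrays, 1 with the replicate block, 0 with slide as a block and 0 to 4 leaving out an array (0 without sham replicate C, 4 without sham replicate A or LDIR replicate C). At 2 weeks it was 0 to 1 and in the interaction 0 to 3 leaving out an array (3 without SPRET/EiJ LDIR replicate C). From 2 to 4 weeks in sham mice it was 2, with 1 by normexp, 0 by the methods' t-test, 1 with all 24 arrays, 1 with the replicate block, 0 with slide as a block and 0 to 3 leaving out an array (0 without 2-week replicate B or C or 4-week replicate B). From 4 to 8 weeks it was 3, and 1 to 4 leaving out an array (1 without 4-week replicate C or 8-week replicate B).

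Prlr gave LDIR differences near 0 whose sign was not stable. With slide as a block it was −0.16 at 4 weeks, and −0.04 from 2 to 4 weeks in sham mice. Without the arrays high in B lymphocyte markers it was 0.03 at 8 weeks, 0.07 in SPRET/EiJ and −0.03 in the interaction. Leaving out an array, it ranged from −0.56 to 0.19 at 2 weeks, −0.22 to 0.34 at 4 weeks, −0.39 to 0.08 at 8 weeks, −0.21 to 0 pooled, −0.71 to 0.07 in SPRET/EiJ, −0.03 to 0.75 in the interaction and −0.19 to 0.36 from 2 to 4 weeks. The replicate block, which takes the letters as pairs although the labels do not say so, left 0 calls at 2 weeks. Elsewhere it ended the Socs3 calls (limma unadjusted p-values of 0.0526 at 4 weeks and 0.0825 from 2 to 4 weeks) and the Stat6 call at base 3450. With Spearman in place of Pearson correlation, 13 of the 30 genes most like a member were shared.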
